A study of Toxocara canis with 2 samples.

Results

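In adult Toxocara canis, the roundworm of dogs, 70267 assembled transcripts (unigenes) were seen. Only the 21280 unigenes in the authors' comparison table carry annotation here, and 3 of them had argonaute ALG-4 as best protein match. They are Unigene7227_All, Unigene287_All and Unigene17494_All, written below without the ending, and were chosen because their best protein match in the authors' comparison table is ALG-4 of Ascaris suum, the related roundworm of pigs. Their sex difference was known when they were chosen, so the differences between male and female below describe them and test nothing. The groups were a male adult worm (1 library) and a female adult worm (1 library), both labelled with the strain Rongchang and both sequenced as polyadenylated RNA of the whole body. Each library comes from a single worm, without replicates, and every difference is therefore one between these libraries. The comparison addressed which transcripts differ between the sexes.

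Argonautes are the proteins that hold a small RNA and use its sequence to find RNAs for silencing or, in some cases, protection. Nematodes carry an expanded set of them. In Caenorhabditis elegans, ALG-4 and its close relative ALG-3 act in the male germline during sperm formation, where they bind small RNAs made with the help of Dicer, while WAGO-1 is a germline argonaute that binds secondary small RNAs copied by RNA-dependent RNA polymerases. The roles of the Toxocara transcripts are not known from these files, which give database matches only.

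All 3 ALG-4 unigenes were far more abundant in the male library than in the female library, by between 30.4-fold and 117-fold. Unigene7227 was represented by 10642 fragments in the male worm and 128 in the female worm, on a length of 2596 bases. This is 223 FPKM (fragments scaled to unigene length and library total) in the male worm and 2.49 FPKM in the female worm. The ratio of the library shares was 89.6, with an exact 95% interval of 75.3 to 107 that covers counting error only.

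Unigene287, of 2441 bases, had 4764 male and 44 female fragments, or 106 FPKM in the male against 0.911 FPKM in the female worm. Its male over female ratio was 117 (86.8 to 161). Unigene17494, the shortest at 734 bases, had 141 male and 5 female fragments, or 10.5 FPKM in the male against 0.344 in the female worm. Its ratio of 30.4 (12.7 to 95.0) is the least precise, because it rests on 5 female fragments. For each of the 3 unigenes the counting intervals of the male and female levels were far apart.

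**Figure D1:**
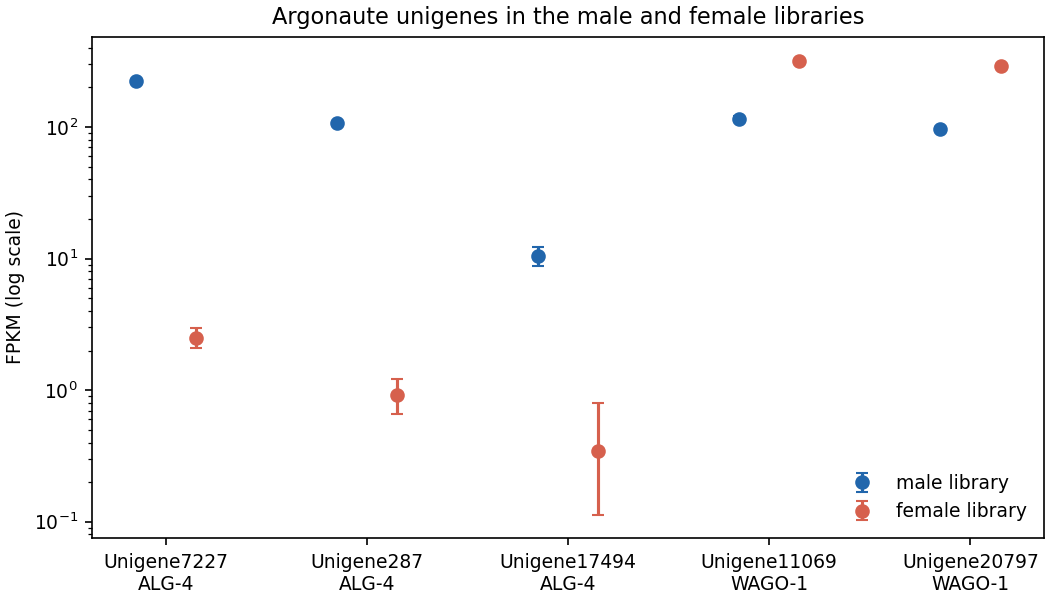
Levels of the 5 unigenes matched to argonautes, in FPKM on a log axis, with the male library to the left of the female library for each unigene; bars are exact 95% Poisson intervals and cover counting error only. The 3 ALG-4 unigenes lie between 10.5 and 223 FPKM in the male worm and between 0.344 and 2.49 FPKM in the female worm, while both WAGO-1 unigenes are higher in the female library.

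The order of the ALG-4 levels was the same in both libraries, with Unigene7227 above Unigene287 and Unigene287 above Unigene17494. In the male library the counting intervals of the FPKM values did not overlap, at 219 to 228 for Unigene7227, 103 to 109 for Unigene287 and 8.81 to 12.3 for Unigene17494. In the female library they were 2.08 to 2.96, 0.662 to 1.22 and 0.112 to 0.803. The intervals of the lower pair overlapped there, while their FPKM ratio of Unigene287 over Unigene17494 was 2.65 with an exact interval of 1.05 to 8.55, just above 1. Unigene7227 carried 65.7% of the summed ALG-4 FPKM in the male worm and 66.5% in the female worm. Unigene287 carried 31.3% in the male against 24.3% in the female worm, and Unigene17494 3.08% in the male against 9.19% in the female worm.

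The sex differences of the members were set against each other by dividing one male over female ratio by another. For Unigene7227 over Unigene287 the quotient was 0.768 (exact conditional 95% interval 0.531 to 1.09), and for Unigene7227 over Unigene17494 it was 2.95 (0.927 to 7.22). Neither pair differed beyond counting error, which leaves room for differences up to the ends of these intervals. Unigene287 had a ratio 3.84 times that of Unigene17494 (1.17 to 9.86), an interval that does not reach 1. Summed over the 3 unigenes there were 15547 male and 177 female fragments, a ratio of 94.6 (81.6 to 110.4), or 0.0847% of all male and 0.000895% of all female fragments.

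In the list of all unigenes ordered by FPKM, Unigene7227 stood at rank 510 in the male against 23091 in the female worm. Unigene287 stood at rank 970 in the male against 40507 in the female worm, and Unigene17494 at rank 7542 in the male against 47212 in the female worm. A size rule asked for a minimum of 5 FPKM in whichever library was higher and a gap of at least 2 in log2(FPKM + 1). This equals a 4-fold difference, and the added 1 shrinks the gap for low transcripts. All 3 members passed it with the male higher, with values of 6.00 for Unigene7227, 5.81 for Unigene287 and 3.09 for Unigene17494. The rule was passed in this direction by 4.5% of all unigenes and by 14.8% of the 21280 unigenes in the authors' comparison table. Since the members were chosen with this contrast known, nothing is read from their count. In the authors' deposited table, whose log2 ratio runs female over male, the values were -6.49 for Unigene7227, -6.87 for Unigene287 and -4.93 for Unigene17494.

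**Figure D2:**
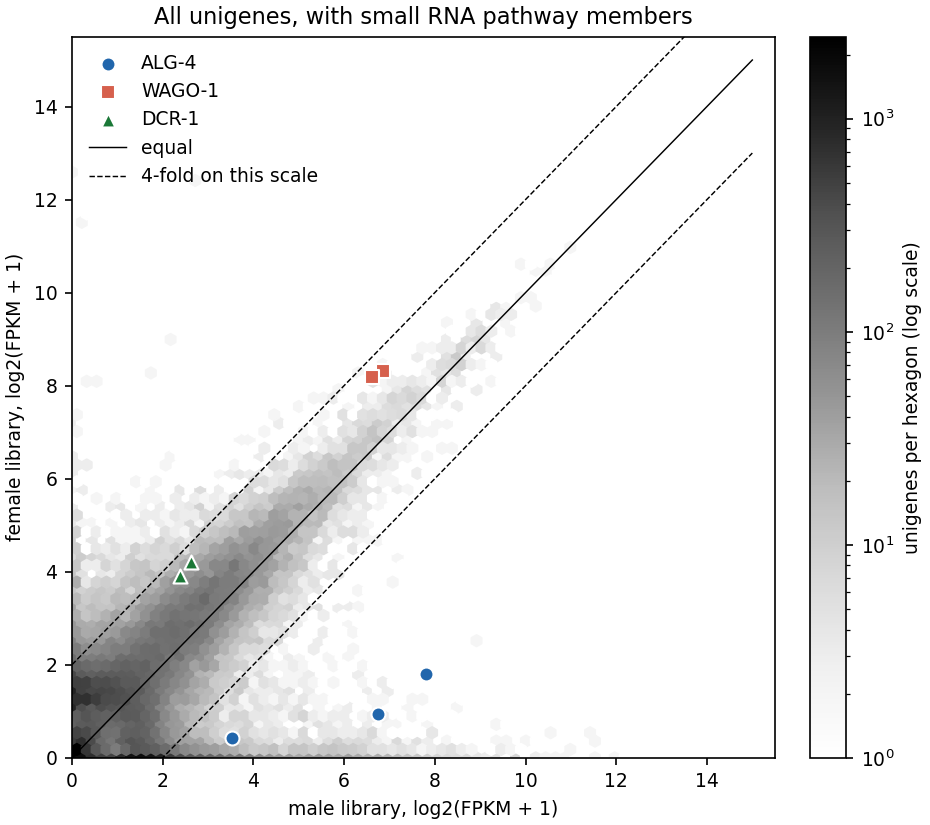
Every unigene by its log2(FPKM + 1) in the male (horizontal axis) and female library (vertical axis), with grey hexagons shaded by the number of unigenes and dashed lines at a 4-fold difference on this scale. The 3 ALG-4 unigenes (circles) lie below the lower dashed line on the male side, while the WAGO-1 (squares) and DCR-1 (triangles) unigenes lie above the line of equality and inside the upper dashed line.

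The 3 unigenes share 1 protein as best match, but differ in the score of their alignment to it. No other unigene of the authors' comparison table had this match. The alignment of Unigene7227 to Ascaris ALG-4 scored 1654 (E-value of 0 in the authors' deposited table), or 1.91 per codon if the whole unigene were translated. Unigene287 is nearly as long but scored 354 (1e-95), or 0.436 per codon. Unigene17494 scored 269 (2e-70), or 1.10 per codon on its 734 bases. Aligned lengths and identities were not available, so a low score per codon cannot tell a short aligned part from a weaker alignment.

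The nucleotide match of all 3 was the messenger RNA of the same Ascaris gene, with scores of 648 for Unigene7227, 359 for Unigene287 and 278 for Unigene17494. In Swiss-Prot, which holds reviewed proteins, all 3 matched argonaute-2 of a vertebrate, the cow for Unigene7227 with a score of 396 and a frog, Xenopus tropicalis, for Unigene287 with 145 and Unigene17494 with 130. KEGG placed all 3 under eukaryotic translation initiation factor 2C, an older name of the argonautes, through best hits in 3 different species. The unigene sequences were not used here, so it was not tested whether the 3 are separate genes, alleles or pieces of one transcript. Fragments of a shared sequence could be split between them by the authors' counting, and the single values are uncertain to that extent.

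**Figure D3:**
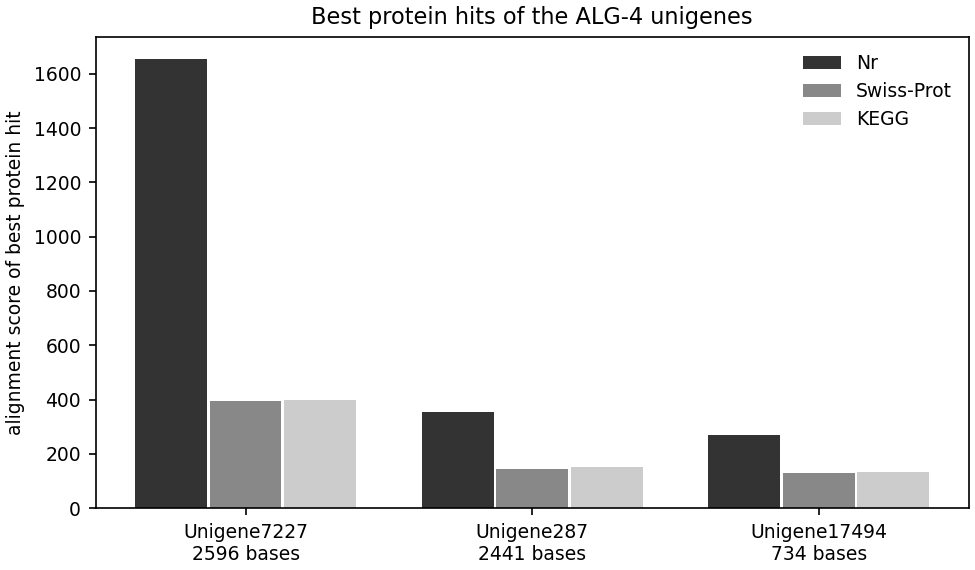
Alignment scores of the best protein match of each ALG-4 unigene in Nr, Swiss-Prot and KEGG, with the unigene length under its name. Unigene7227 and Unigene287 are of similar length, at 2596 and 2441 bases, but score 1654 and 354 against the same Ascaris protein.

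The only other unigenes of the authors' comparison table found by argonaute names in their descriptions were a pair matched to Ascaris WAGO-1. Both were lower in the male library, and an argonaute described in other words would be missed. Unigene20797 had 3784 male and 12270 female fragments, or 96.7 FPKM in the male against 291 FPKM in the female worm, and was 3.01-fold higher in the female worm (2.90 to 3.12). Unigene11069 had 2240 male and 6626 female fragments, or 116 FPKM in the male against 317 FPKM in the female worm, 2.75-fold higher in the female worm (2.62 to 2.88). In Swiss-Prot both matched R06C7.1 of C. elegans, described there as a germ cell-expressed protein.

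Summed argonaute fragments numbered 21571 in the male against 19073 in the female worm (ratio of library shares 1.22, 1.20 to 1.24). Other scalings of the libraries shift the log2 of such a ratio by between -0.046 and 0.42. The makeup of the summed fragments differed between the libraries. ALG-4 took 72.1% of them in the male library (exact binomial 71.5 to 72.7%) and 0.928% in the female library (0.797 to 1.07%). Per length, ALG-4 held 61.6% of the summed argonaute FPKM in the male worm and 0.612% in the female worm. The ratio of summed ALG-4 FPKM to summed WAGO-1 FPKM was 1.60 in the male against 0.00616 in the female worm. The WAGO-1 unigenes, of 2131 and 1055 bases, could also be pieces of a single transcript, which was not tested. Summed FPKM counts such a transcript more than once, for WAGO-1 as for ALG-4, so these levels per length are uncertain to that extent. The male over female ratio of the summed ALG-4 fragments was 275 times that of the WAGO-1 fragments (237 to 322), a quotient that no scaling of the libraries can change. These shares cover named unigenes only, since a unigene outside the authors' comparison table carries no annotation here and further argonautes may be among those.

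Only unigenes that the authors had called different between the sexes carry annotation, so a pathway gene with similar levels in both could not enter the lists. Under that limit, other unigenes of the small RNA pathway list lay on both sides. Those with fragments in both libraries had male over female ratios between 0.188 and 3.85. Both ends of this range rest on matches of uncertain identity, described below. With the 3 ALG-4 unigenes the pathway list held 15 unigenes of the authors' comparison table, 8 on the male and 7 on the female side, with a median log2((male FPKM + 1)/(female FPKM + 1)) of 0.28. Over the whole comparison table the median was 0.78, with 55.7% of unigenes higher in the male library, and over all unigenes seen it was -0.082, with 45.6% higher in the male. Of the 12 unigenes other than ALG-4, 5 lay on the male and 7 on the female side, their median was -0.45, and 0 passed the size rule in either direction. In the female direction 7.84% of the comparison table and 2.38% of all unigenes passed it. In the male direction these shares were 14.8% and 4.5%. Unigenes below 5 FPKM in both libraries could not pass, whatever their ratio. Among these were the SID-1 and exportin-5 matches described below, at 1.76 and 0.519 FPKM in the female worm. The ERI-1 and MUT-7 matches and the tudor-domain matches CL96.Contig5, CL4154.Contig4 and CL2281.Contig1 were also below that level in both libraries. Few of the 12 could therefore pass, and nothing is read from the 0. The list held 0 matches to RNA-dependent RNA polymerases, which may be among the unigenes without annotation.

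Dicer, the nuclease that cuts double-stranded RNA into small RNAs, was on the female side. The long DCR-1 unigene CL1916.Contig2 was at 5.16 FPKM in the male against 17.4 FPKM in the female worm, 3.37-fold higher in the female (3.07 to 3.70). A further, shorter DCR-1 match, Unigene5358, was at 4.23 FPKM in the male against 14.1 FPKM in the female worm, 3.33-fold higher in the female (2.06 to 5.62). A match to exportin-5 (Unigene1716), which in vertebrates carries microRNA precursors out of the nucleus, had 8 male and 40 female fragments and was 4.64-fold higher in the female worm (2.14 to 11.5). A match to SID-1 (CL3721.Contig1), the channel for double-stranded RNA in C. elegans, had 18 male and 103 female fragments and was 5.31-fold higher in the female worm (3.20 to 9.31). Its KEGG description was a matrix metalloproteinase, so the identity is uncertain.

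The matches to exonucleases and most tudor-domain matches were on the male side, at low levels in most cases. A match to ERI-1 (CL2772.Contig1), an exonuclease that in C. elegans is needed for the small RNAs bound by ALG-3 and ALG-4, had 59 male and 24 female fragments, or 2.36 FPKM in the male against 0.891 FPKM in the female worm, a male over female ratio of 2.65 (1.62 to 4.45). A match to MUT-7 (CL1153.Contig1), which in C. elegans acts in transposon silencing, had 30 male and 9 female fragments and a ratio of 3.59 (1.66 to 8.60). Tudor-domain proteins, many of which sit in germ granules, had 4 matches. Unigene11271 was the most abundant, at 77.7 FPKM in the male against 20.2 FPKM in the female worm with a ratio of 3.85 (3.58 to 4.15). Both Nr and KEGG described it as an iron-sulfur cluster assembly protein, so its identity is uncertain. CL96.Contig5 had a ratio of 3.49 (2.70 to 4.55), whereas CL4154.Contig4 was 2.78-fold higher in the female worm (1.65 to 4.88). CL2281.Contig1 had 14 male and 0 female fragments, which makes it at least 5.03-fold higher in the male when 0 is replaced by 3 fragments per library.

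**Figure D4:**
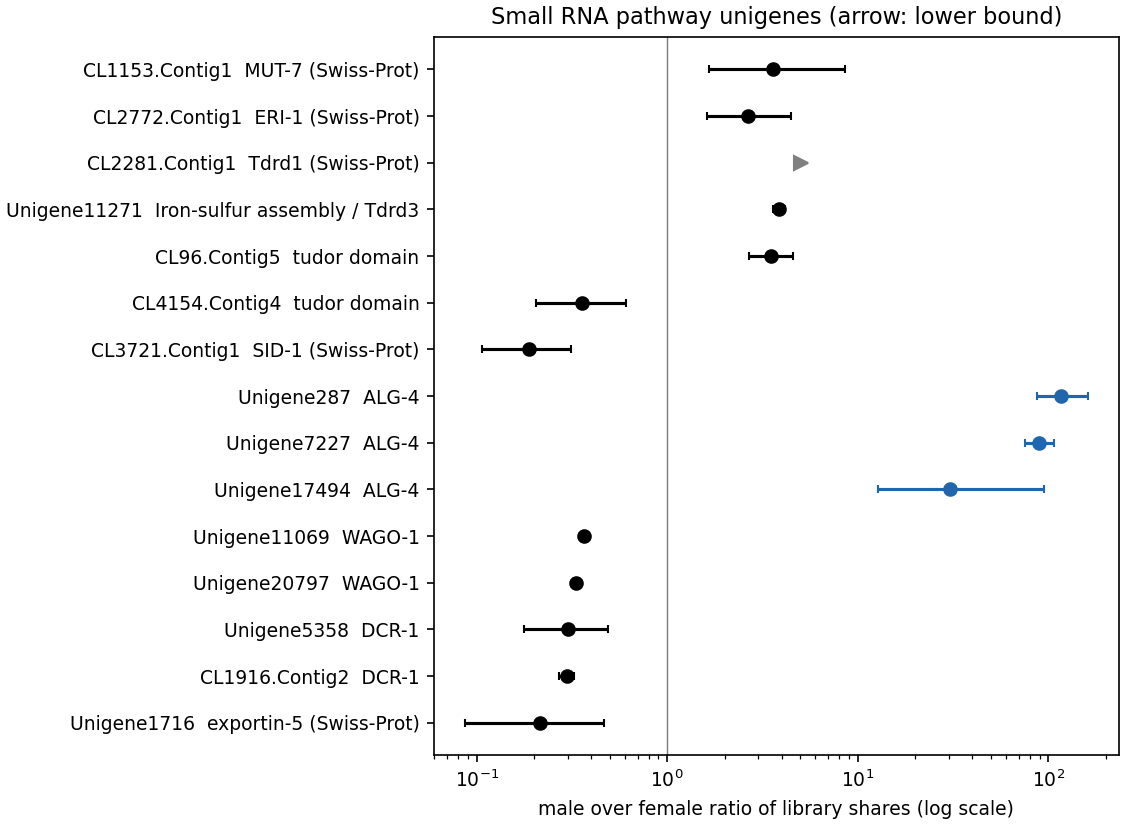
Male over female ratio of library shares for the 15 unigenes of the small RNA pathway list, on a log axis, grouped by role, with exact 95% intervals that cover counting error only; the arrow is a lower bound for a unigene with 0 female fragments. The ALG-4 unigenes (blue) lie between 30.4 and 117, and the other unigenes with fragments in both libraries lie between 0.188 and 3.85. Both ends of the latter range are matches of uncertain identity.

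By their sums, sperm and eggshell transcripts fitted the sex given in the labels. A list of 91 sperm protein matches, mostly major sperm proteins, the cytoskeletal proteins of nematode sperm, had 90 members higher in the male library. It summed to 68025 FPKM in the male against 44.4 FPKM in the female worm, and 0 members were at 0 fragments in the male worm and 51 in the female worm. Its leading unigene, major sperm protein isoform beta (CL2081.Contig1), had a male over female ratio of 4281 (3382 to 5502). An eggshell and yolk list of 54 unigenes had 40 members higher in the female and 14 in the male library, and by the size rule 35 female and 4 male. Its sum stood at 891 FPKM in the male against 102164 FPKM in the female worm, led by CL957.Contig5, an ovarian message protein of Ascaris by its match, at 560-fold higher in the female worm (527 to 596). In this list 1 member was at 0 fragments in the male worm and 9 in the female worm. Over the authors' comparison table, 55.7% of unigenes were higher in the male library. There, 14.8% passed the size rule with the male higher and 7.84% with the female higher.

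ALG-4 and the sperm list were both higher in the male library, by different amounts. The male over female ratio of summed fragments was 94.6 for ALG-4 and 1155 for the sperm list (1077 to 1240), and ALG-4 stood at 0.00500 of the summed sperm FPKM in the male worm and 0.0843 of it in the female worm. The part of the sperm and eggshell transcripts in the ALG-4 difference was not tested. In whole worms, fewer cells of a type and less RNA per cell cannot be told apart. A meiosis list held 1 unigene, a match to the DNA repair protein MSH-5 (Unigene11188), with 31 male and 4 female fragments and a ratio of 8.35 (2.95 to 32.6).

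The transcripts most like each ALG-4 unigene were sought among the unigenes with an informative protein description in the authors' comparison table, by distance in log2(FPKM + 1) over the 2 libraries. Among the 5 nearest to Unigene7227 were a match to MFP2c (CL4740.Contig1), a sperm fiber protein in Ascaris, at 265 FPKM in the male against 3.50 FPKM in the female worm (distance 0.44), and a protein with the domain of major sperm proteins (Unigene4296) at 179 FPKM in the male against 3.40 FPKM in the female worm (0.46). Nearest of all was Unigene11860, at 204 FPKM in the male against 2.76 FPKM in the female worm (0.17), whose best match was a dog keratin. The keratin and MFP2c matches were weak, with scores of 58.2 and 59.7, and the MFP2c unigene matched a glycosylation enzyme subunit in Swiss-Prot. A fructose-bisphosphate aldolase (Unigene19481), a glycolytic enzyme, lay at 0.72, and an aromatic amino acid decarboxylase match (Unigene2477) at 0.85. In Swiss-Prot Unigene2477 matched a histidine decarboxylase.

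Nearest to Unigene287 were a transporter of the major facilitator superfamily (CL2513.Contig1), at 106 FPKM in the male against 0.877 FPKM in the female worm (distance 0.026), and a UBASH3-type protein (CL5242.Contig1), at 109 FPKM in the male against 0.885 FPKM in the female worm (0.044). A pair of tyrosine kinase matches of the Fer type followed, Unigene77 at 110.0 FPKM in the male against 1.22 FPKM in the female worm (0.22) and CL934.Contig1 at 87.1 FPKM in the male against 1.10 FPKM in the female worm (0.32), with the synaptobrevin match Unigene8094 between them (0.31). The 5 nearest to Unigene17494 were matches to a dyrk1 kinase (CL6115.Contig3), a lipase (Unigene5842), the superoxide dismutase SOD-4 (Unigene22142), the translocon subunit Sec61 beta (CL4056.Contig1) and a patched family protein (Unigene26669), at distances of 0.094 to 0.23. Some of these matches were also weak, with scores of 69.7 for dyrk1, 75.5 for Sec61 beta, 91.7 for synaptobrevin and 96.7 for SOD-4. The lipase match scored 157 but had no match in Swiss-Prot. With 2 libraries, many transcripts share such a pattern, and likeness here says only that both levels were similar.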

How the data were processed

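RNA from the whole body of 1 male and 1 female adult worm was sequenced after poly-A selection and random priming, per the labels' protocols. The authors' files for each library hold unscaled fragment counts, lengths and FPKM values of the unigenes, per the file headers. The male library holds 18.4 M fragments and the female library 19.8 M. The deposited FPKM equals the count divided by length and library total, within 5.0e-05. A unigene missing from a library's table was taken as 0 fragments. The authors' deposited table of 21280 unigenes adds a log2 ratio (female over male), a p-value, an FDR and the best database hits with their alignment score and E-value; its test is not named there, and for the assembler, aligner and counter the tools were not given in the sources used. Every unigene in that table has a deposited FDR of at most 0.000994 and a ratio no smaller than 1.00 in absolute log2, so the members, lists and neighbours, which need its annotation, come from unigenes the authors had already called different.

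With 1 library per sex no test was run and no count model was fitted. Folds are ratios of library shares with exact (Clopper-Pearson) 95% intervals, FPKM intervals are exact Poisson, and quotients of folds have exact conditional intervals; all cover counting error only. Gene lists were matched to the Nr, Swiss-Prot and KEGG descriptions without organism names. Named were all argonaute matches, up to 3 unigenes per other pathway role, the 5 nearest unigenes per member and the leading unigene of the sperm and eggshell lists; CL2281.Contig1 was added after its values were seen. The members and lists were chosen with earlier results of these data known, and what counts as an informative description was narrowed after a first look. Alternatives were 3 other scalings, a pseudocount of 0.1 FPKM, other minimum levels and a list without KEGG. Intervals came from SciPy 1.17.1 and tables from pandas 2.3.3 with NumPy 2.4.6, under Python 3.11.15. Figures were drawn with matplotlib 3.10.9. The steps were tested on simulated counts that held counting error only. Spread between worms and fragments shared between unigenes were not simulated, so that test does not cover them.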

Additional observations from a re-analysis of the deposited data

How the results depend on the processing

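The scaling moved the folds and changed no direction among the 14 small RNA pathway unigenes with fragments in both libraries. Scaling by the median of ratios over unigenes seen in both libraries raised every log2 male over female value by 0.42, and scaling by the upper quartile by 0.22. With the median of ratios, Unigene7227 stood at 120.1-fold and the summed ALG-4 fragments at 127-fold; with the upper quartile the sum was 110.5-fold. The folds of Unigene287 and Unigene17494 stayed within their counting intervals under all 3 scalings. The WAGO-1 unigenes were 2.05-fold to 3.11-fold higher in the female library under the 3 scalings. The number of small RNA pathway unigenes past the size rule with the male higher was 3. It was 4 under the median of ratios or the upper quartile, where Unigene11271, of uncertain identity, joined. With the female higher it was 0 under every setting run. No setting run could let the low SID-1 and exportin-5 matches pass. Without the minimum level the added 1 FPKM still held them back, and the run with 0.1 FPKM kept the minimum of 5 FPKM. Over all unigenes, 3160 passed with the male higher, between 3104 and 4719 under the alternatives. No paired analysis was possible because each sex has 1 library. Among the 3 ALG-4 unigenes, Unigene17494 has the widest interval relative to its fold, with 5 female fragments, and the spread between worms is unknown.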
